A study of Mus musculus with 4 samples.

Results

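A list of 9 transcription factor genes of the inner retina was examined at the level of transcript isoforms: Pax6, Tfap2a, Tfap2b, Vsx1, Isl1, Prox1, Meis2, Bhlhe22 and Neurod4. The 9 genes were a list chosen with earlier results of these data known. They were matched by Ensembl gene identifier to a table of isoform counts per cell class. Of the 9, 8 had at least 1 isoform under their identifier, out of 13452 Ensembl genes in the table, and together they held 29 of its 44325 isoforms. A further 5 isoforms overlapped Bhlhe22, Isl1 or Prox1 on the same strand but were listed under loci named only by position, and they are described separately.

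The inner retina holds the interneurons that lie between photoreceptors and the brain-projecting ganglion cells: bipolar cells carry the photoreceptor signal inward, and amacrine cells modulate it laterally. Homeodomain factors (Pax6, Vsx1, Isl1, Prox1, Meis2), basic helix-loop-helix factors (Bhlhe22, Neurod4) and AP-2 factors (Tfap2a, Tfap2b) are known to specify or maintain these cells. Many such genes are transcribed from more than 1 start site and spliced into proteins that differ in their DNA-binding or transactivating parts, which long reads can follow along 1 molecule.

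All mice were male wild-type C57BL6/J, with no allele or drug to compare, and the whole dissociated retina was the starting tissue. Of 4 single-cell libraries, 2 had no enrichment (1 at postnatal day 40, the other with no age given), 1 had CD73 enrichment at postnatal week 8 and 1 had CD90.2 enrichment at postnatal month 4. The protocol describes magnetic columns that depleted CD73-positive cells and retained CD90.2-positive cells, whereas the design text names FACS. The 6 columns of counts are named AC (amacrine cells), BC (bipolar cells), Cone, MG (the radial Müller glia), Rod and RGC (ganglion cells). No column names a library, so each class is 1 pooled value without a replicate: no test between classes was possible, and age, enrichment and class composition cannot be told apart.

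Column totals ran from 3509890 counts (RGC) to 55437340 (rods), and levels are CPM, counts as a rate for every 1000000 in the column. Intervals in brackets are exact 95% Poisson or Clopper-Pearson intervals, and they cover counting error only, as does the upper limit of 3 counts set for a count of 0. Most marker genes peaked where the column names place them: 8 of 9 amacrine, 8 of 8 bipolar, 6 of 6 cone, 6 of 6 rod, 5 of 6 Müller and 7 of 7 ganglion markers were highest in their own column. The amacrine marker sum in the other columns was between 0.227% (BC) and 3.43% (RGC) of its AC level, and the bipolar marker sum was up to 3.64% of its BC level (rods). Horizontal cells had no column: 4 of 6 of their markers were in the table, highest in 4 different columns. Astrocyte markers (4 of 5 in the table) and microglial markers (6 of 6) were all highest in MG.

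The sequences below carry the splicing differences described later. Pax6 exon 5a is a 42 nt exon at chr2:105684751-105684792 (GRCm38, + strand), shown in capitals with 20 nt of the neighbouring exons in lower case. It inserts a stretch into the paired domain and is known to change which DNA sites the protein binds.
Pax6 exon 5a: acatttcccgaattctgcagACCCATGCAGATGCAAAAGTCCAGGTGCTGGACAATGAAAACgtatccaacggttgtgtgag
For Meis2, both ways of leaving the same upstream exon are shown on the − strand, with 20 nt of that exon in lower case. Capitals mark the 56 coding nt of a 95 nt exon when it is included (chr2:115866849-115866904) and the first 56 nt of the last exon when it is skipped (chr2:115864458-115864513).
Meis2 exon included: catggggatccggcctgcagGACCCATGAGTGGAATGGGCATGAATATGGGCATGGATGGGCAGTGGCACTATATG
Meis2 exon skipped: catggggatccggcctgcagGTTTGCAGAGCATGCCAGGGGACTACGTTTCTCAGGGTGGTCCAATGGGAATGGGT
All 3 were read from GENCODE M21 transcripts. In M21, 4 of 4 coding Meis2 transcripts with the 95 nt exon end their coding sequence inside it, and 2 of 2 without it end in the last exon after 284 coding nt there, so the exon sets the carboxyl end of the protein.

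Of the 8 genes with an isoform, 4 had their highest level in AC (Pax6, Tfap2a, Tfap2b and Meis2), where 21.3% of all Ensembl genes with at least 10 counts were highest. The other 4, Vsx1, Isl1, Prox1 and Neurod4, were highest in BC, where 14.1% of all genes were. A gene was called restricted when at least 80% of its CPM summed over the 6 columns lay in 1 column. The list and this rule were chosen with earlier results of these data known. The shares set beside those of all genes are therefore a description and not a test. By this rule 6 of 8 were restricted, beside 15.5% of all genes: Pax6, Tfap2a and Tfap2b in AC (4.57% of all genes) and Vsx1, Isl1 and Neurod4 in BC (1.65%). The median share of the highest column was 89.4% over the 8 genes and 43.7% over all genes. Prox1 (73.5% in BC) and Meis2 (62.8% in AC) fell short of the threshold. With the isoform at a position-named locus inside Prox1 added, Prox1 had 82.8% in BC and passed it, and its BC level went from 3.45 to 14.9 CPM. In these pooled columns a class with fewer expressing cells and one with less RNA per cell cannot be told apart.

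**Figure D1:**
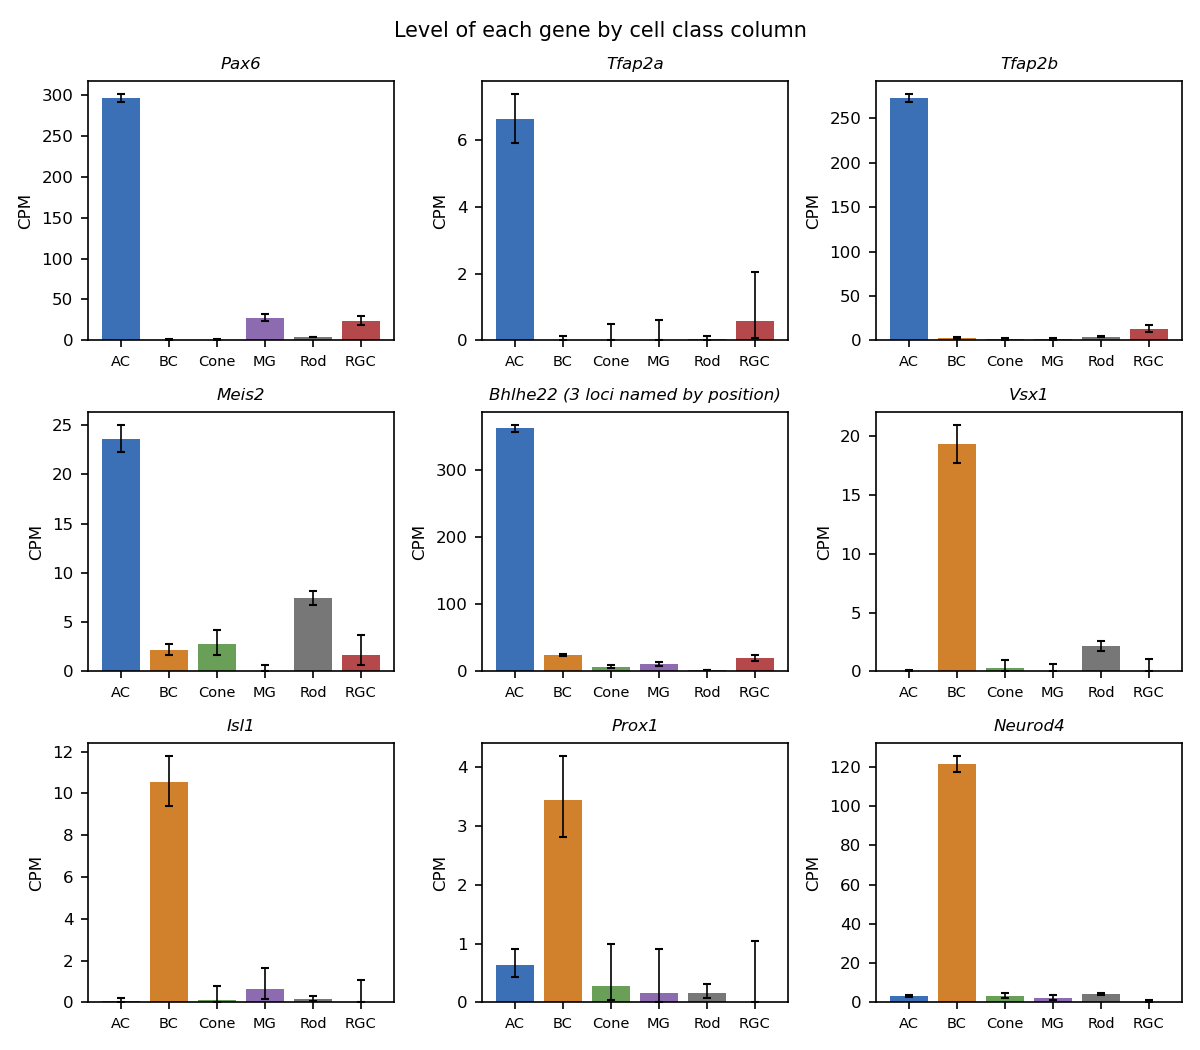
Level in CPM (linear axis from 0, a scale of its own for each gene) of the 9 genes in the 6 cell class columns; bars are pooled counts and lines are exact 95% Poisson intervals for counting error. Pax6, Tfap2a, Tfap2b, Meis2 and the loci inside Bhlhe22 are highest in AC, and Vsx1, Isl1, Prox1 and Neurod4 in BC.

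Pax6 (chr2:105668900-105697364, + strand), the paired-box homeodomain factor kept by adult amacrine and ganglion cells, was at 296 CPM in AC (14297 counts), 27.9 in MG (171 counts), 24.2 in RGC (85 counts), 4.09 in rods (227 counts), 1.07 in BC (31 counts) and 0.821 in cones (6 counts). AC exceeded MG, the next column, 10.6-fold (9.14 to 12.4). MG and RGC were not apart (ratio 1.15, 0.883 to 1.51), and neither were BC and cones. The amacrine marker sum in MG was 0.612% of its AC level, whereas Pax6 in MG was 9.41%. In RGC the corresponding values were 3.43% and 8.17%, and single amacrine markers there reached 40.1% (Gad2). In rods they were 1.30% and 1.38%. The part of RNA from other classes in these low levels was not tested.

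In all, 5 Pax6 isoforms were listed, numbered here by their counts, and they differed in 2 features: the first exon and exon 5a. Isoforms 1 (7412 counts, with 5a) and 2 (5229 counts, without) began in an internal first exon at chr2:105682508-105682633, 13608 nt after the annotated gene start, and have no Ensembl transcript identifier. Isoforms 3 (1194 counts, without 5a) and 4 (613 counts, with 5a) are the annotated ENSMUST00000111087.9 and ENSMUST00000111086.10, which begin at an upstream first exon, chr2:105668900-105669049. Isoform 5 (369 counts, all in AC) had no deposited model, so its structure is unknown. The models from the internal first exon lack the exon with the annotated start codon, yet cover 99.2% (isoform 1) and 96.0% (isoform 2) of the 1308 nt coding sequence of the form with exon 5a.

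**Figure D2:**
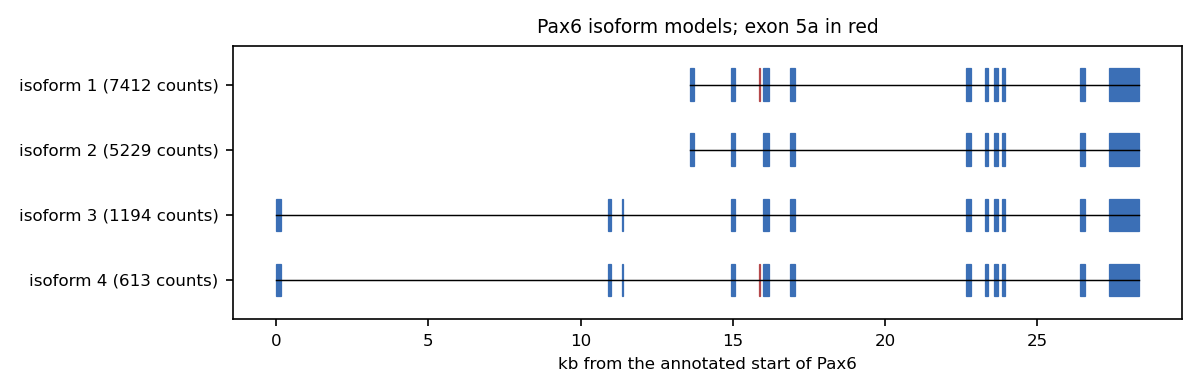
Exons of the 4 modelled Pax6 isoforms to scale, in kb from the annotated gene start, with exon 5a in red and total counts beside each name. Isoforms 1 and 2 start 13608 nt inside the gene and isoforms 3 and 4 at its start, and 1 of each pair contains exon 5a.

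The class columns used the 2 first exons in different proportions. Among counts of modelled isoforms, the internal first exon took 89.4% in AC (88.8 to 89.9; 12447 of 13928), 54.8% in BC (17 of 31), 46.3% in rods (39.6 to 53.0; 105 of 227), 32.2% in MG (25.2 to 39.7; 55 of 171) and 15.3% in RGC (8.40 to 24.7; 13 of 85). In cones it took 4 of 6 counts. AC stood above each of the others but cones, by 34.5 points over BC (18.5 to 51.6) and 74.1 points over RGC (64.9 to 80.2); the difference from cones, with 6 counts, was not estimated.

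On the CPM scale, the AC excess of Pax6 lay mainly in transcripts from the internal exon. These were at 258 CPM in AC, 8.97 in MG, 3.70 in RGC, 1.89 in rods, 0.586 in BC and 0.547 in cones, so that AC exceeded MG 28.8-fold (22.1 to 38.2). Transcripts from the upstream exon were far more even among the first 3 of these columns. They stood at 30.7 CPM in AC, 20.5 in RGC, 18.9 in MG, 2.20 in rods, 0.483 in BC and 0.274 in cones. Here AC exceeded MG 1.62-fold (1.34 to 1.98) and RGC 1.5-fold (1.18 to 1.92). These small ratios depend on the scaling. A median of ratios in place of column totals raised MG by 0.449 and RGC by 0.189 log2 units against AC, which lowers both. Their intervals under that scaling were not computed. With annotated isoforms alone, the share of summed CPM in AC fell to 42%, and Pax6 was no longer restricted.

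Exon 5a was included in 56.2% of modelled Pax6 counts in AC (55.3 to 57.0; 7822 of 13928) and 55.9% in rods (49.2 to 62.5; 127 of 227). Inclusion was 38.7% in BC (21.9 to 57.8; 12 of 31), 28.2% in RGC (19.0 to 39.0; 24 of 85), 21.1% in MG (15.2 to 27.9; 36 of 171) and 4 of 6 counts in cones. AC was above MG by 35.1 points (28.3 to 40.6) and above RGC by 27.9 points (17.5 to 36.4), whereas AC and rods differed by 0.213 points (-6.15 to 6.77). MG and RGC were not apart (-7.18 points, -18.9 to 3.62).

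Inclusion also depended on the first exon in AC. There it was 58.8% of transcripts from the internal exon (7320 of 12447) and 33.9% of those from the upstream exon (502 of 1481). Rods showed no such gap, with 57.1% (60 of 105) and 54.9% (67 of 122), and the intervals overlapped. In MG the values were 25.5% (14 of 55) and 19.0% (22 of 116), and in RGC 5 of 13 counts and 26.4% (19 of 72). In BC they were 10 of 17 and 2 of 14 counts, and in cones 3 of 4 and 1 of 2. Within the internal exon alone AC still exceeded MG, by 33.4 points (20.5 to 43.0). Within the upstream exon, which held 72 of the 85 RGC counts, AC and RGC were not apart (7.51 points, -3.93 to 16.6). There AC exceeded MG by 14.9 points (6.51 to 21.5), and rods were higher than AC, the difference AC minus rods being -21 points (-29.9 to -11.8).

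**Figure D3:**
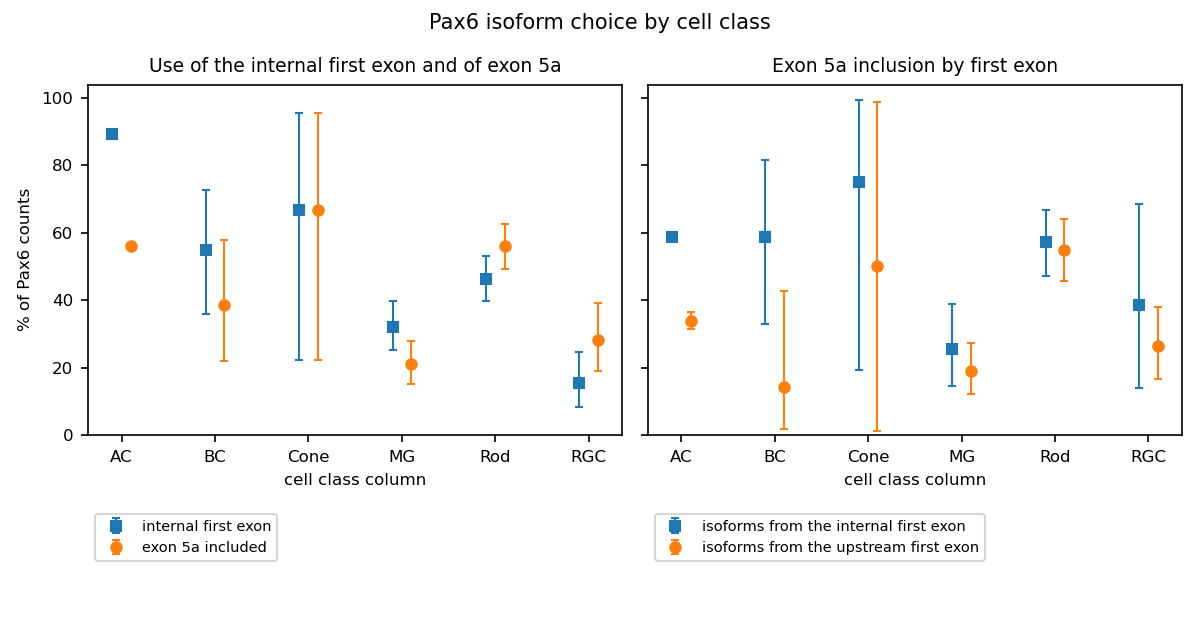
Left, % of modelled Pax6 counts from the internal first exon (squares) and with exon 5a (circles) in each class column; right, % with exon 5a within transcripts from the internal (squares) and the upstream (circles) first exon; lines are exact 95% binomial intervals. Internal first exon use is highest in AC (89.4%) and lowest in RGC (15.3%). Exon 5a inclusion is lowest in MG (21.1%), which was not apart from RGC (28.2%).

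The leading Pax6 isoform differed between columns. A gene was called switched between classes when it had at least 20 counts in each, a different leading isoform and a difference of at least 50 points in the share of 1 of them. Of the 4 genes with enough counts in at least 1 pair of classes (Pax6, Tfap2b, Prox1 and Meis2), 1 (Pax6) met this rule, a share no different from the 25% over all genes comparable in this way. Meis2 also had different leading isoforms, given below, with differences under 50 points. Pax6 isoform 1 led in AC with 51.2% (7320 of 14297) against 5.88% in RGC (5 of 85). Isoform 3 led in RGC with 62.4% (53 of 85) against 6.85% in AC (979 of 14297). Isoform 3 also led in MG with 55.0% (94 of 171), where the difference from AC stayed under 50 points. Without the RGC column, an alternative chosen after seeing the data, no gene switched. In BC the leading isoform was 3 (12 of 31 counts), and in rods isoform 4 (29.5%, 67 of 227), with isoform 1 at 26.4%.

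The 250 nt before each of the 2 Pax6 starts are shown because the starts were used differently by class (RefSeq start sites, GRCm38.p6, + strand, chr2:105668646-105668895 and chr2:105682213-105682462). Capitals mark the only match to 2 motifs searched, TAATTA (the core bound by many homeodomains) and CANNTG (the E-box of basic helix-loop-helix factors), which both read the same on either strand.
Pax6 upstream start: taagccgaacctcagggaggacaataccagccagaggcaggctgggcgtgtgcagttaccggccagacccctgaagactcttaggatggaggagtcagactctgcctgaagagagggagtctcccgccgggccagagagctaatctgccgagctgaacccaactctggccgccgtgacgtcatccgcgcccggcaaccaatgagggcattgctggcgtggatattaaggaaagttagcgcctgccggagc
Pax6 internal start: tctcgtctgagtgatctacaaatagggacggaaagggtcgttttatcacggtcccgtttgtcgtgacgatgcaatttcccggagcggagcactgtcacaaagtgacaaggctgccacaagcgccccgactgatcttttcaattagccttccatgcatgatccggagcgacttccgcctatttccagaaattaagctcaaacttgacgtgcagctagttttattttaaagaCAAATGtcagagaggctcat
The upstream stretch had 60.8% G and C and the internal one 47.6%, against a median of 52.4% over 32851 mouse promoters of this length. CANNTG occurred 1 time before the internal start and 0 times before the upstream one, and 66.2% of all promoters hold it. TAATTA occurred in neither, and 4.84% of all promoters hold it. A match of letters is a description and not a binding site.

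Tfap2b (chr1:19208914-19238576, + strand), an AP-2 factor of amacrine and horizontal cells, was at 273 CPM in AC (13167 counts), 13.1 in RGC (46 counts), 4.37 in rods (242 counts), 2.72 in BC (79 counts), 1.63 in MG (10 counts) and 1.37 in cones (10 counts). AC exceeded RGC 20.8-fold (15.6 to 28.5) and RGC exceeded rods 3-fold (2.14 to 4.13), while BC, MG and cones were not apart as neighbours. Both isoforms are annotated and differ in the first exon. The upstream one, ENSMUST00000027059.10, made up 96.1% in AC (12656 of 13167), 95.5% in rods (231 of 242), 93.7% in BC (74 of 79), 46 of 46 counts in RGC and 10 of 10 each in MG and cones. No pair of columns with at least 20 counts was apart in this share: AC minus RGC was -3.88 points (-4.22 to 3.83). Its model covers the whole annotated coding sequence, and ENSMUST00000064976.5, which starts 3140 nt inside the gene, covers 94.1% without the start codon of the longer form.

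Tfap2a (chr13:40715302-40738376, − strand), the related AP-2 factor, had far fewer counts, with 319 counts in AC (6.61 CPM, 5.91 to 7.38), 2 in RGC, 2 in rods and 0 in BC, cones and MG. Against RGC, the next column, AC was 11.6-fold higher (3.19 to 96.2), a range set by the 2 counts in RGC. In AC, 3 first exons were used, and the most upstream, chr13:40738119-40738376, took 72.5% (67.0 to 77.5; 216 of 298 modelled counts). It belongs to isoform 1, which has no Ensembl identifier and whose first intron is not in M21. The other first exons took 20.1% (60 of 298, ENSMUST00000110193.8) and 7.38% (22 of 298, ENSMUST00000021787.6). The other 21 AC counts belong to an isoform without a model. Counts outside AC were too few for shares.

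Meis2 (chr2:115863064-116065839, − strand), a TALE homeodomain factor that partners with other homeodomain proteins, had the broadest pattern of the AC genes. It was at 23.6 CPM in AC (1140 counts), 7.43 in rods (412 counts), 2.74 in cones (20 counts), 2.14 in BC (62 counts) and 1.71 in RGC (6 counts), with 0 counts in MG. AC exceeded rods 3.18-fold (2.84 to 3.57) and rods exceeded cones 2.72-fold (1.74 to 4.49), while cones, BC and RGC were not apart as neighbours. The rod level was 31.5% of that in AC, and the amacrine marker sum in rods was 1.30% of AC, single markers reaching 25.3% (Slc6a9). The RGC level, from 6 counts, was 3.49 times the limit of 3 counts in MG. Its own interval (0.627 to 3.72 CPM) came close to that limit (0.489 CPM), so no lower bound on the difference is given.

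All 10 Meis2 isoforms lack an Ensembl transcript identifier and none has the intron chain of an M21 transcript. Only the model of isoform 3 (213 counts) holds the start codon of the 1431 nt reference coding sequence. Among the models that reach the annotated 3′ end of the gene, isoform 7 covers the least of that sequence, 81.4%. The following splicing features were chosen after their values were seen. Among the 8 isoforms that reach the annotated 3′ end of the gene, the 95 nt exon (chr2:115866810-115866904) was included in 98.8% of counts in AC (97.9 to 99.3; 1117 of 1131). Inclusion was 57.4% in BC (44.1 to 70.0; 35 of 61), 35.5% in rods (29.9 to 41.4; 100 of 282), 30% in cones (11.9 to 54.3; 6 of 20) and 3 of 6 counts in RGC. AC was above rods by 63.3 points (57.5 to 68.7) and above BC by 41.4 points (29.7 to 53.9). The 95 nt exon was thus in nearly all counts of these 8 isoforms in AC and in the minority in rods. It carries the annotated protein end shown among the sequences above. An earlier internal exon had forms of 142 and 119 nt. The longer one took 22.7% of Meis2 counts in AC, 53.2% in BC, 29.1% in rods, 40% in cones (8 of 20) and 1 of 6 counts in RGC. Whether each isoform keeps the reading frame to the annotated protein end was not tested.

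A second feature set rods apart. Isoforms 5 and 8 end early, 195219 and 178233 nt before the annotated gene end, and their models cover 42.2% and 51.9% of the 1431 nt reference coding sequence without its last base. Together they took 31.6% of Meis2 counts in rods (27.1 to 36.3; 130 of 412), 0.789% in AC (9 of 1140), 1 of 62 counts in BC and none of 20 in cones or 6 in RGC. On the CPM scale the form with the exon was 12.8-fold higher in AC than in rods (10.5 to 15.9). The form without the exon that reaches the annotated 3′ end was 11.3-fold higher in rods than in AC (6.57 to 21.1). The early ends were 12.6-fold higher in rods (6.42 to 28.1). Thus the total of Meis2 joined forms with opposite orders in AC and rods.

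**Figure D4:**
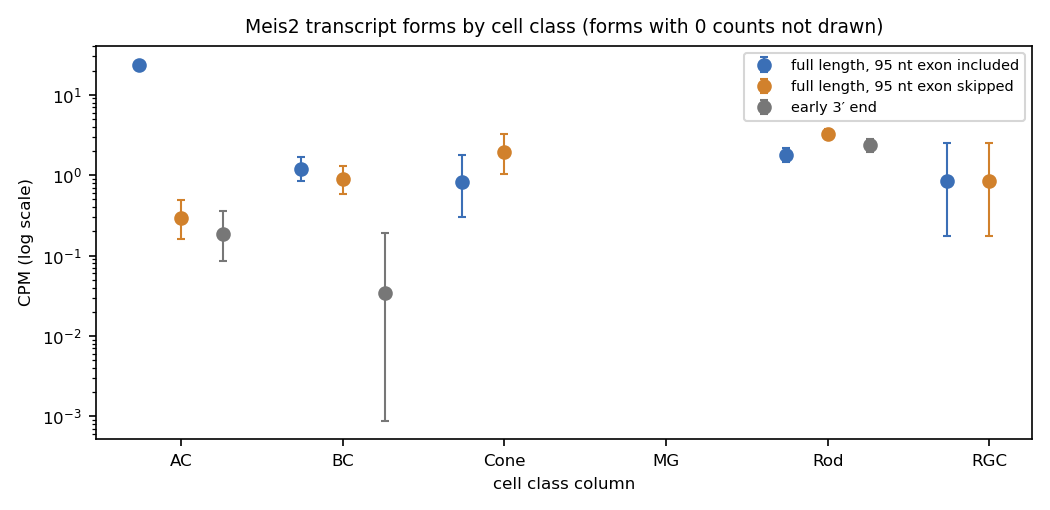
Level in CPM (log axis) of 3 forms of Meis2 transcript in the 6 class columns, with exact 95% Poisson intervals for counting error; forms with 0 counts are not drawn. The form with the 95 nt exon is at 23.2 CPM in AC and 1.80 in rods, and the form without it is at 0.290 CPM in AC and 3.28 in rods. Full length in the key means only that the model reaches the annotated 3′ end.

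The leading Meis2 isoforms followed these features. Isoform 1, with the exon, led in AC (53.1%, 605 of 1140) and in BC (24.2%, 15 of 62), and was at 14.6% in rods (60 of 412). Isoform 4, without the exon, led in rods (30.8%, 127 of 412) and in cones (10 of 20 counts), and was at 0.526% in AC (6 of 1140). Isoform 5, with an early end, was at 22.8% in rods (94 of 412) and had 0 counts in AC. Isoforms 2 (19.5%) and 3 (17.5%) were the others above 10% in AC, and isoforms 2, 4, 9 and 10 took 16.1%, 14.5%, 11.3% and 16.1% in BC. Isoform 7, which begins at the innermost first exon, took 4 of 20 counts in cones, as did isoform 9. When the required difference was lowered from 50 to 25 points, Meis2 counted as switched together with Pax6.

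Bhlhe22 (chr3:18054174-18057517, + strand), a helix-loop-helix repressor of amacrine and bipolar subtypes with 1 exon in M21, had no isoform under its identifier. There were 3 single-exon isoforms listed under position names inside it, with 7628, 6843 and 4010 counts. None overlapped the coding sequence (chr3:18054788-18055852): the first lies in the annotated 5′ UTR and the others in the 3′ UTR. Their sum was 362 CPM in AC (17464 counts), 24.8 in BC (719 counts), 19.4 in RGC (68 counts), 10.8 in MG (66 counts), 6.98 in cones (51 counts) and 2.04 in rods (113 counts). AC exceeded BC 14.6-fold (13.6 to 15.8), and BC and RGC were not apart (1.28, 0.997 to 1.67). Since these fragments do not reach the coding sequence, the values describe these loci, and the full mRNA was not measured.

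Neurod4 (chr10:130268152-130280240, − strand), a proneural helix-loop-helix factor, had the most counts of the 4 bipolar genes. It was at 122 CPM in BC (3525 counts), 4.44 in rods (246 counts), 3.42 in cones (25 counts), 3.30 in AC (159 counts) and 2.28 in MG (14 counts), with 0 counts in RGC. BC exceeded rods 27.4-fold (24.1 to 31.3), and rods, cones, AC and MG were not apart as neighbours. Rods (3.90 to 5.03 CPM) did lie above AC (2.80 to 3.85) and MG (1.25 to 3.83), which are not their neighbours. The rod level was 3.65% of that in BC, and single bipolar markers there ran from 0.887% to 21.4% with a median of 4.06%. Its single isoform, ENSMUST00000061571.4, has a deposited model of 317 nt that ends 3028 nt before the annotated gene end and covers 22.6% of the coding sequence.

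Vsx1 (chr2:150680702-150689360, − strand), a homeodomain factor of cone bipolar subtypes, was at 19.3 CPM in BC (560 counts), 2.13 in rods (118 counts) and 0.274 in cones (2 counts), with 1 count in AC and 0 in MG and RGC. BC exceeded rods 9.07-fold (7.42 to 11.2), and rods exceeded cones 7.78-fold (2.11 to 65.0). The rod level was 11.0% of that in BC, whereas the 8 bipolar markers ran from 0.887% to 21.4% (Prkca) there with a median of 4.06%. What part of the rod counts came from bipolar RNA was not tested. The 1 isoform, ENSMUST00000046095.9, covers the whole coding sequence.

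Isl1 (chr13:116298281-116309689, − strand), a LIM homeodomain factor of ON bipolar, starburst amacrine and ganglion cells, was at 10.5 CPM in BC (306 counts). The other columns held 8 counts in rods, 4 in AC, 4 in MG, 1 in cones and 0 in RGC. The low depth of RGC bears on the last value, since 0 counts there allow up to 0.855 CPM. BC exceeded MG, the next column by CPM, 16.2-fold (6.25 to 59.7). Isoform 1 took 88.9% in BC (272 of 306), begins 3177 nt inside the gene, and covers 72.6% of the coding sequence without the start codon. None of the 3 isoforms has an Ensembl transcript identifier.

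Prox1 (chr1:190118035-190170714, − strand), a prospero homeodomain factor of horizontal, AII amacrine and bipolar cells, had the fewest counts of the 8 genes listed under an identifier. It was at 3.45 CPM in BC (100 counts) and 0.643 in AC (31 counts), with 9 counts in rods, 2 in cones, 1 in MG and 0 in RGC. BC exceeded AC 5.37-fold (3.55 to 8.31), and no lower neighbours were apart. AC (0.437 to 0.912 CPM) did lie above rods (0.0742 to 0.308), which are not its neighbour. All 3 isoforms are annotated, cover the whole coding sequence and differ in the first exon or its splice site. ENSMUST00000175916.7 led in BC (55 of 100 counts) and AC (24 of 31). ENSMUST00000177288.3 took 22 of 100 and 7 of 31. ENSMUST00000010319.13, from an inner first exon, took 23 of 100 in BC and 0 of 31 in AC, a difference AC minus BC of -23.0 points (-32.2 to -9.86).

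Isoforms without an Ensembl transcript identifier were about as frequent among these genes as elsewhere by number but held more of the counts. Of 29 isoforms, 18 (62.1%) had no Ensembl transcript identifier, beside 60.3% of all isoforms of Ensembl genes. They held 42.9% of the counts of the 8 genes and 5.58% of those of all Ensembl genes, and 2 internal-start isoforms of Pax6 made up most of them. Per gene the share was 87.8% for Pax6, 74.3% for Tfap2a, 100% for Isl1 and Meis2, and 0 for Tfap2b, Vsx1, Prox1 and Neurod4.

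Genes with the most similar spread over the 6 columns were found among genes with at least 500 counts. The measure was the total variation distance in percentage points, the part of summed CPM that must move between columns to make the spreads equal. Pax6 was nearest to Stac2 (4.48), Crabp1 (4.81) and Npy (5.02). Tfap2a was nearest to Kcnip1 (1.27), Ccdc88b (1.63) and Spink13 (1.72), and Tfap2b to Slc32a1 (1.57), the vesicular GABA transporter, Tac2 (1.64) and Spink13 (1.93). Meis2 lay farther from its neighbours, Nr1d1 (7.19), Klf12 (7.27) and Phactr1 (9.55). Among the bipolar genes, Neurod4 was nearest to Pcp2 (2.11), Scgn (2.23) and Gsg1 (2.33), and Vsx1 to Gsg1 (5.25), Cabp2 (5.57) and Vipr2 (5.57). Isl1 was nearest to Cnmd (1.46), and Cdc25c stood at 2.20, and Prox1 to Acta1 (3.23), Cadps (3.38) and Epha7 (5.86).

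Among 60 other retinal transcription factors listed for comparison, 48 had an isoform, and 10 were highest in AC, 13 in BC, 9 in RGC, 6 in cones, 6 in MG and 4 in rods. Of the 48, 13 were restricted, with a median highest share of 60.4%. The 4 with the most counts were Nr2e3 (1094 CPM in rods) and Nrl (954 in rods), which specify rods, Neurod1 (561 in cones, 404 in rods) and Six6 (816 in MG). In AC, the restricted factors with at least 100 counts were Tfap2c (26.3 CPM), the third AP-2 gene here, Neurod6 (10.7) and Nr4a2 (2.42). In BC they included Lhx3 (17.9) and Bhlhe23 (6.65), the paralogue of Bhlhe22. In RGC the 1 such factor was Pou4f3 (36.2), and the rods had Nr2e3 and Nrl.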

How the data were processed

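Single-cell cDNA of dissociated mouse retina was read on a nanopore long-read sequencer, per the labels' protocols. The authors deposited whole-number counts per isoform in 6 cell class columns and a set of transcript models; the counts are used as deposited. The aligner, the calling of cells and classes, doublet removal and whether reads were collapsed to molecules are not given in the sources used here. The build is mm10, per the submitters' processing notes, and 62 of 64 junctions of the models used (96.9%) are in GENCODE M21, on GRCm38. Models exist only for isoforms with a rod count: 24 of the 29 isoforms had one, and the 5 without it hold 455 of 35450 counts. An M21 transcript of the same identifier supplied the structure of Tfap2a isoform 3 and Prox1 isoform 2.

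Genes were matched by Ensembl identifier, and 0 value columns were left unused. Counts were scaled to CPM by column totals over all isoforms. Ratios carry exact conditional intervals, differences of shares Newcombe intervals, and shares Clopper-Pearson intervals, all at 95%. Neighbours in the order of levels were called not apart when their Poisson intervals overlapped or the ratio interval held 1. An annotated isoform is one with an Ensembl transcript identifier. Named were all 9 genes, per gene the isoform with the most counts, those at 10% or more in a class with 20 counts, the leading unannotated one, and the 3 nearest genes for genes with at least 100 counts. Of the other transcription factors, the 4 with the most counts and those restricted with at least 100 counts were named. The genes, lists and rules were chosen with earlier results of these data known. Python 3.11.15, scipy 1.17.1 and pandas 2.3.3 were used. The rules for restriction and switches were tested on simulated data with strong restriction and with swaps of the leading isoform at 100 or more counts. Calls near the thresholds or from fewer counts were not covered. Alternatives were scaling by a median of ratios, isoform subsets, thresholds, loci named by position and 20 random draws of each column to the depth of RGC. Protein sequences were not used here, and some results that the rules on named genes call for are not reported here.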

Additional observations from a re-analysis of the deposited data

Results flagged for a closer look

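The following isoforms lie outside the comparisons above and had counts above the limit that 0 counts allow in the column where each was highest. On the strand opposite Pax6, the 3 isoforms of Pax6os1 were at 45.3 CPM in MG (278 counts) and 23.0 in AC (1110 counts), the reverse of the order of Pax6 in these columns. A locus named by position on that strand was at 14.5 CPM in MG, 9.12 in RGC and 8.79 in AC. None of these 4 antisense models shares exon sequence with the Pax6 models. Prox1os, on the strand opposite Prox1, was at 301.9 CPM in BC (8759 counts) and 70.2 in AC (3385 counts), and its model overlaps exon sequence of Prox1. Whether the counting used strand is not given in the sources used here, so reads of Prox1 and Prox1os cannot be told apart where they overlap.

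A 2-exon isoform listed at a position inside Prox1 was at 11.4 CPM in BC (332 counts) and 1.47 in AC (71 counts), and its model covers 8.28% of the Prox1 coding sequence. A 2-exon isoform at a position inside Isl1 was at 0.379 CPM in BC (11 counts), with 1 count each in MG and rods, below that limit. What produced these isoforms was not tested.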

How the results depend on the processing

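No paired analysis was possible because no column names a library. Of 45 alternatives to the counts of genes and to exon 5a inclusion, 37 left the result within its counting interval or within 1.5 times, and 8 did not. Some of the 37 could not move. Every Pax6 isoform had at least 369 counts, so a minimum of 10 counts removed none, and drawing to the depth of RGC left RGC unchanged. In cones the exon 5a interval was 22.3 to 95.7%, so few values could fall outside it. The tally is therefore not a measure of robustness. With restriction at 95% of summed CPM, 0 genes remained restricted in place of 6. For a changed leading isoform, requiring 100 counts gave 0 genes, a difference of 25 points gave 2, and leaving out the RGC column gave 0, in place of 1, and RGC, with 85 Pax6 counts, is out of the comparison in the first and last of these. Exon 5a inclusion over annotated isoforms alone was 33.9% in AC and 14.3% in BC, and over unannotated isoforms alone 58.8% in AC and 58.8% in BC, since these subsets are the upstream and internal first exons. With annotated isoforms alone, 3 of 6 genes were highest in AC and 4 of 6 restricted; with loci named by position added, 5 of 9 and 8 of 9. Against AC, a median of ratios shifted log2 levels by up to 0.45 (MG), and did not change the highest column of any of the 8 genes. The planned TMM scaling of the columns is not among these alternatives and was left out. Depth limits RGC most: 0 counts there allow 0.855 CPM, so absence of Isl1, Vsx1, Prox1 or Neurod4 is not shown.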
